A study of Mus musculus with 12 samples.

Results

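The nuclear-encoded subunits of the respiratory chain and of the ATP synthase were followed in mouse kidney tubuloids, which are tubule cells cultured as small bodies in a gel. They were the protein-coding genes of the deposited table whose symbol begins with Nduf, Uqcr or Atp5, with Cox and a digit from 4 to 8, or is Sdha, Sdhb, Sdhc or Sdhd. That rule, which uses names and no measured value, took 90 of 20819 genes, 15422 of which are protein coding. By complex, 38 are subunits of complex I, 8 are Nduf-named assembly factors that are not part of the finished enzyme, 4 belong to complex II, 8 to complex III, 15 to complex IV and 17 to complex V. Ndufa4 was placed with complex IV, where its product sits, and Ndufa4l2 with complex I by its name.

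The respiratory chain sits in the inner mitochondrial membrane. Complexes I and II pass electrons from NADH and succinate to ubiquinone, complex III hands them to cytochrome c, and complex IV reduces oxygen. Complexes I, III and IV pump protons, and complex V, the ATP synthase, uses the proton gradient to make ATP. Most subunits are encoded in the nucleus and imported, and a few catalytic ones are encoded by mitochondrial DNA. Kidney tubules, which reabsorb filtered salt and solutes at a high ATP cost, are rich in mitochondria.

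The tubuloids came from the cortex of 4 wildtype mice and were kept in Matrigel. They received vehicle, myoglobin, or myoglobin together with 100 nM dexamethasone (below, both agents), for 12 h, and 4 libraries were sequenced for each treatment. Myoglobin is the haem protein of muscle, which can injure tubules when it reaches the kidney, and dexamethasone is a synthetic glucocorticoid. No group analysed here had dexamethasone alone. The labels do not say whether a replicate number stands for a mouse, so p-values measure only the spread between these samples, which may be technical.

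Depth, estimated from the values as reads assigned to genes, ran from 5.28 to 5.92 M in the vehicle and myoglobin libraries. Replicate 4 of both agents had the fewest, 3.25 M, and it stands apart, with 2179 genes at 0 where the other libraries have between 1051 and 1544. The counts and medians of the members are therefore given with and without it. Changes of single genes and of other lists are with all 12 libraries unless stated. All 7 markers of tubular epithelium were expressed, with vehicle means from 650 for Krt8, a keratin, to 2414 for Cdh1, an adhesion protein of epithelia. Their summed value ranged from 8683 to 9066 in vehicle libraries, from 8228 to 8683 under myoglobin and from 8678 to 11795 under both agents. Of 10 proximal tubule markers, 8 are in the table and 4 had a mean of at least 10 (summed value 700 to 868 over all libraries), and Slc34a1, the phosphate transporter of that segment, had group means of 1.25 to 1.75. Of 10 markers of the thick limb and distal nephron 8 are in the table, and their summed value was 3218 to 3934 in vehicle libraries, 2616 to 2963 under myoglobin and 3280 to 3633 under both agents. Among them only Calb1, a calcium-binding protein, had higher means with myoglobin and with both agents than with vehicle, at 1373, 1698 and 2106. It made up most of the summed value under both agents. All other markers of this list in the table had lower means than with vehicle in both groups. Slc12a3, the thiazide-sensitive salt transporter, had 1044, 458 and 633, and Scnn1b, a sodium channel subunit, 956, 566 and 568. The part of such a shift in the results below was not tested. The summed value of 5 striated muscle markers was 19 to 50, that of 5 endothelial markers 5 to 15, that of 6 fibroblast markers 59 to 151, and that of 5 immune markers 472 to 676, of which Ptprc made up most. No marker in the table was at 0 in all libraries. In bulk RNA, a change in the number of cells of a type and a change in RNA per cell cannot be told apart.

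Promoter sequence is shown for 5 members whose call against vehicle held whichever library was left out: Atp5g1, which had the smallest p, and the 4 with a searched motif in the 200 bases shown (Ndufb6 and Ndufs8 hold the ETS letters only elsewhere in their 300-base window). Each line is the 200 bases before the RefSeq transcription start (build GRCm38.p6, the mm10 coordinates), 5′ to 3′ on the coding strand, with motif matches in capitals.
Atp5g1, chr11:96075632-96075831, minus strand: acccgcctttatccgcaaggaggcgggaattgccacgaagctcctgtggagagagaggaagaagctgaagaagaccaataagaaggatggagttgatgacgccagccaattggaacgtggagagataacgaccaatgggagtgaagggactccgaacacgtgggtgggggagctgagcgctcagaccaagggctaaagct
Ndufaf4, chr4:24897883-24898082, plus strand: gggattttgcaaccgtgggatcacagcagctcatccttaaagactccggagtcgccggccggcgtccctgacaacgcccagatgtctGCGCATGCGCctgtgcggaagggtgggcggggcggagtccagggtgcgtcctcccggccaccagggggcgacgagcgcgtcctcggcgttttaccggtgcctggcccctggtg
Sdhd, chr9:50603850-50604049, minus strand: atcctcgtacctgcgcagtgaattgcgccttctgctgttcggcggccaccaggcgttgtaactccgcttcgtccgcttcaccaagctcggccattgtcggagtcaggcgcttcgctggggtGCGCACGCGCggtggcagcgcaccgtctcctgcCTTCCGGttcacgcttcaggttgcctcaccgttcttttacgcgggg
Ndufs3, chr2:90904722-90904921, minus strand: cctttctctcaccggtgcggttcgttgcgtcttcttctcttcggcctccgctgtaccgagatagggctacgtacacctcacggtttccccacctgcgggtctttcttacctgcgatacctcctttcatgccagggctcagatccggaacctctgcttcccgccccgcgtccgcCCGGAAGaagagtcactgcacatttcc
Sdha, chr13:74350241-74350440, minus strand: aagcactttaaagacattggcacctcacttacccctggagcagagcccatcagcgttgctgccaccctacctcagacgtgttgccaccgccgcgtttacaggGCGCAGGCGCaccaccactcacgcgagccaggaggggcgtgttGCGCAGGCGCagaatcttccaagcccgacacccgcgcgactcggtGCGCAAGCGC
The motifs, searched on both strands, were that of NRF1, an activator of nuclear respiratory genes (the capitals of the Ndufaf4 line, with any base allowed after the A), CCGGAAG (the ETS motif, bound by GABP among others), that of YY1, TCAAGGTCA (oestrogen-related receptors) and the full palindrome of the glucocorticoid receptor. NRF1 letters begin 113 bases before the start in Ndufaf4, 79 bases before it in Sdhd, and at 98, 55 and 10 bases in Sdha. ETS letters begin 46 bases before the start in Sdhd and 27 bases before it in Ndufs3, and the matches in these lines do not overlap. The Sdhd window also holds the oestrogen-related receptor letters, but not within the 200 bases shown. In Atp5g1 none of the 5 motifs matched in the window.

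RefSeq matched 89 members by identifier or symbol, and 74 of them had a window of 300 bases, from 250 before to 50 after a start. Of the 79 member windows, 25.3% held the NRF1 letters, against 6.38% of all 21263 windows of protein-coding genes. The ETS letters were in 24.1% against 11.6%, the YY1 letters in 7.59% against 1.21%, and the oestrogen-related receptor letters in 2.53% against 0.334%. The full glucocorticoid palindrome was in 0 member windows and in 0.00941% of all windows. A match describes the letters only and was not tested for binding.

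The level of the members was compared between genes as the normalised value per kb of the shortest principal transcript of the annotation (GENCODE M21). In the vehicle group the median was 430.3 per kb for complex V, 358 for complex III, 309.8 for complex II, 296 for complex IV, 262 for complex I and 87.0 for the assembly factors. The order of these medians is a description and, among complexes II to V, depends on the transcript length chosen. With the longest principal transcript Atp5d has 303 per kb in place of 458, Atp5md 43.2 in place of 335 and Uqcrq 125 in place of 468. The classes also overlap widely: within complex I the level ran up to 576 per kb for Ndufa7. Within complex V it ran from 154 for Atp5g2 to 669 for Atp5b, the catalytic beta subunit. The assembly factors, whose products act in building complex I, lay between 49.0 and 166 per kb. The plot of levels per kb shows how close the 3 treatments lie within each class.

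**Figure D1:**
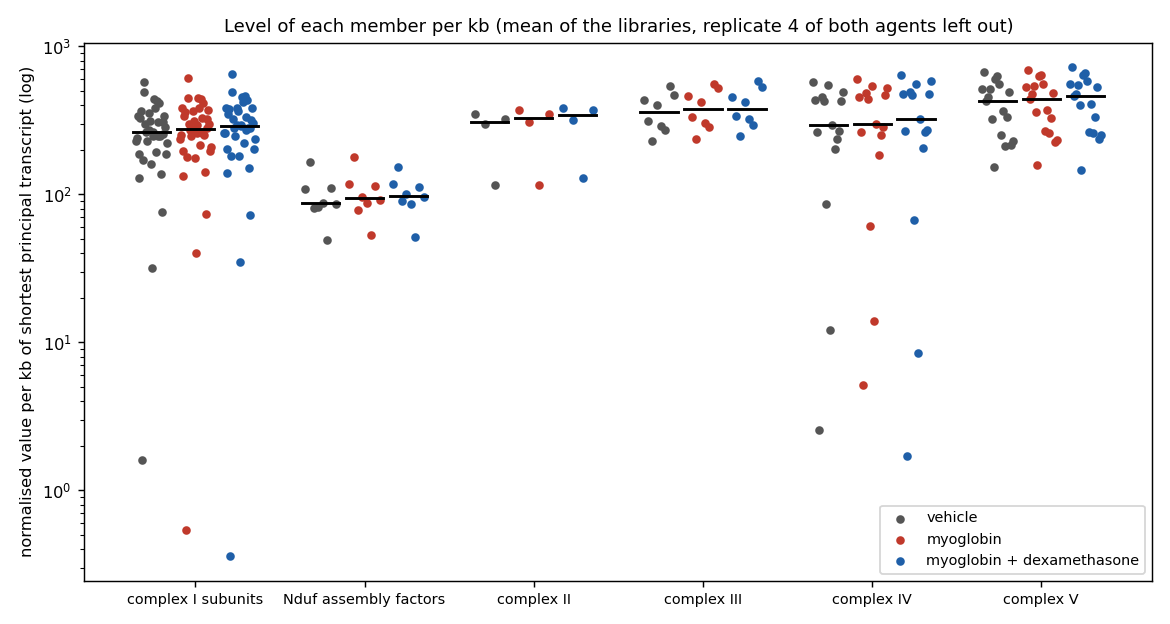
Level of each member on a log axis, as the group mean of the normalised value per kb of its shortest principal transcript, by complex and treatment (points are genes, black lines medians, replicate 4 of both agents left out). The complex V median with vehicle is 430.3 and that of the assembly factors 87.0, and the lowest points are Ndufa4l2, Cox5b-ps and Cox7a1.

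Paralogs of one subunit were expressed at very different levels. Cox6b1, the general form of a complex IV subunit on the intermembrane side, had 428 ± 2.43 per kb with vehicle (SD, n = 4), and its testis-type paralog Cox6b2 86.6 ± 10.3. Cox7a2, the widely expressed form, had 296 ± 13.9, and Cox7a1, the form of heart and skeletal muscle, 12.1 ± 5.64. Cox7a2l, a related protein that takes part in joining complexes into supercomplexes, had 204 ± 11.1. The orders within these pairs did not depend on the transcript length chosen.

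Ndufa4 had 493 ± 25.6 per kb, whereas Ndufa4l2, a paralog known from hypoxia, was at values of 0 to 3 in the 12 libraries. Among the 3 genes for the c subunit of the ATP synthase rotor, Atp5g3 had 600.1 ± 16.6 per kb. Atp5g1 had 325 ± 14.3 with its shortest principal transcript of 596 bases and 41.0 with its longest of 4715, so its order against Atp5g2 (154 ± 5.67) depends on the length used. The 3 genes below the expression limit of the test (4 or more libraries at 10 or higher) were Cox7a1 at 2 to 8, Ndufa4l2 at 0 to 3 and Cox5b-ps, a pseudogene by its name, at 0 to 4. The other 87 members were tested. Reads of near-identical copies can be split in counting, which makes Cox5b-ps and the pseudogene-named Ndufb1-ps uncertain.

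Summed over all 90 members, the normalised values with vehicle were 24226 to 24599 (mean 24426 ± 155, SD, n = 4). With myoglobin they were 24647 to 26362 (25394 ± 730.2), so that every myoglobin library lay above every vehicle library, with a mean 3.96% higher. With both agents, replicates 1 to 3 had 26166 to 26768 (26444 ± 304, n = 3), which is 8.26% above vehicle and 4.14% above myoglobin, with ranges that overlap myoglobin at its top. Replicate 4 had 33577, 27.0% above the mean of the other 3. By class, the mean of replicates 1 to 3 was above vehicle by 10.5% for complex II, 8.34% for complex I, 8.19% for the assembly factors, 8.14% for complex IV, 7.73% for complex V and 7.56% for complex III. The sums of the assembly factors overlap, at 1058 to 1166 with vehicle and 1134 to 1249 in these replicates. Much of their difference is Ndufaf4, with means of 299 and 363, and with myoglobin they were already 7.18% above vehicle.

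**Figure D2:**
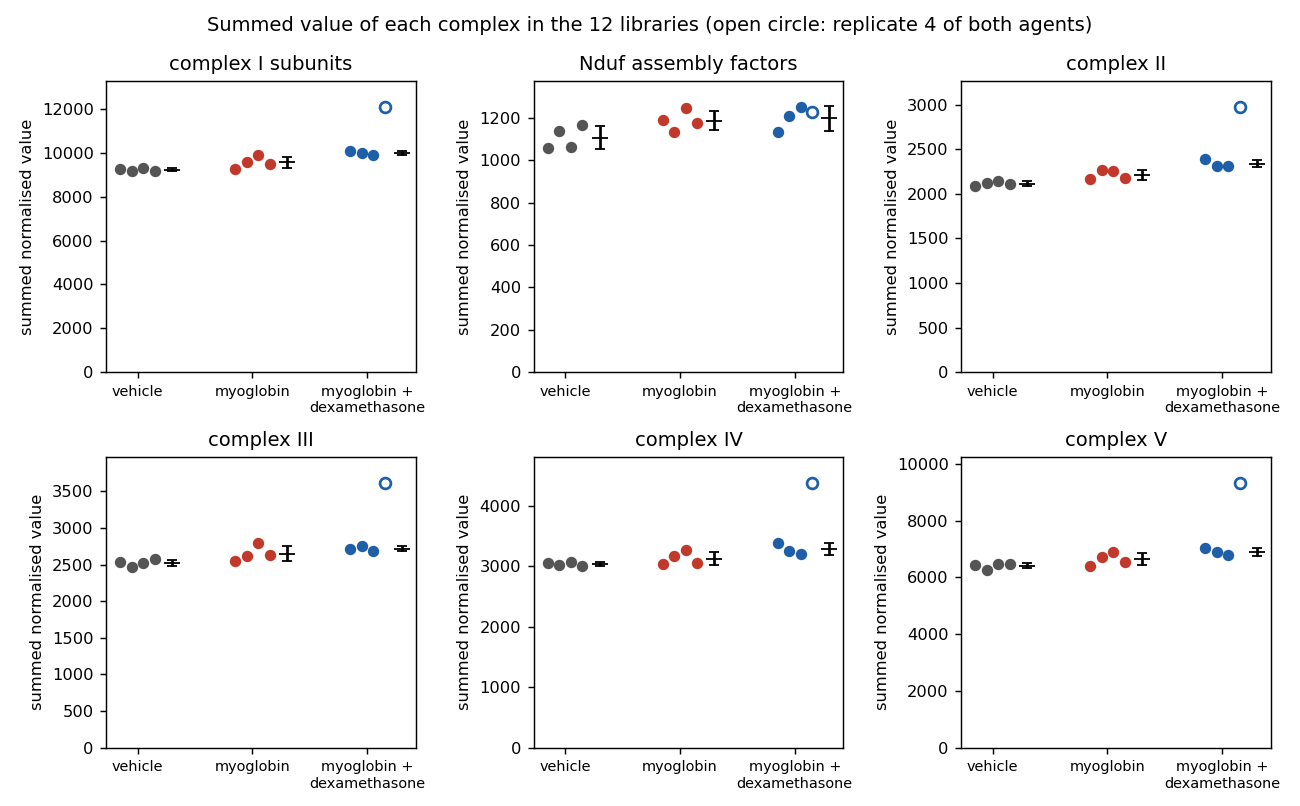
Summed normalised value of each class of members in the 12 libraries, from 0. Points are libraries, the open circle is replicate 4 of both agents, and the bars give mean and SD with that library left out. Replicate 4 lies above the other libraries in complexes I to V, at 12079 in complex I and 9321 in complex V, and within the range of its group, at 1226, in the assembly factors.

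Replicate 4 of both agents was the highest of the 12 libraries for 73 of the 87 tested members, a count that was not made for other genes. Its median deviation from the other 3 libraries of its group, on the log2 scale, was 0.33 for the members and 0.01 for all other tested genes. The deviation moved with how densely a transcript was covered by reads. Among genes with 0.03 to 0.1 reads per exonic base it was 0.24 for members and -0.03 for the others, at 0.1 to 0.2 it was 0.31 and 0.13, at 0.2 to 0.3 it was 0.39 and 0.28, and above 0.3 it was 0.49 and 0.40. The members were covered densely, with a median of 0.152 reads per base against 0.0580 for the others. Low depth, the many genes at 0 and this trend occur in the same library, and their part in the higher values was not tested.

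**Figure D3:**
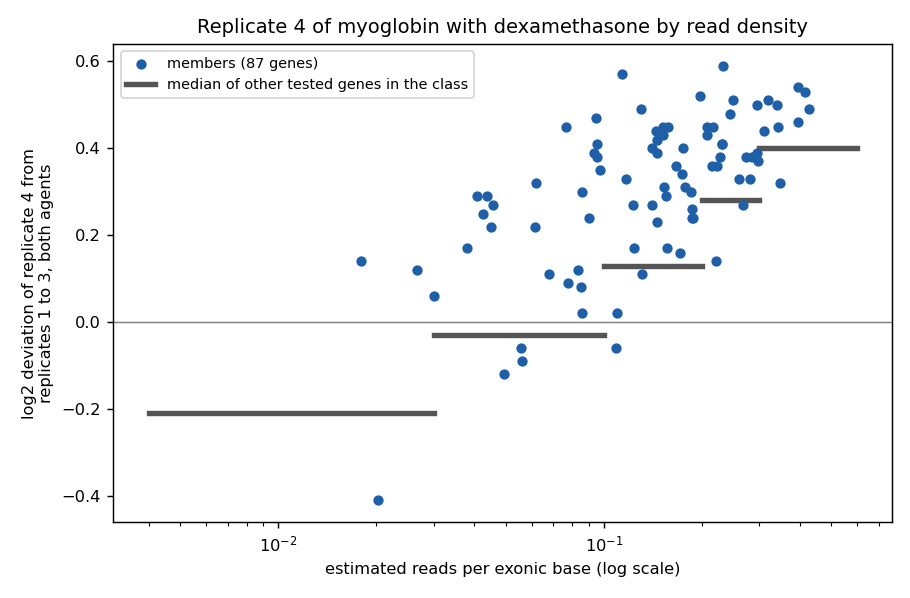
Log2 deviation of replicate 4 of both agents from replicates 1 to 3, for each tested member (points), against the estimated reads per exonic base on a log axis, with the median of the other tested genes in 5 density classes (grey lines). Both rise to the right, from -0.21 below 0.03 to 0.40 above 0.3 for the other genes, and the members lie mostly above the grey lines.

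The first comparison asks what myoglobin alone does to these genes. Few changed beyond the spread between libraries: Ndufaf4, an assembly factor of complex I, rose, and Cox6b2 fell. These were 1 member up and 1 down of 87, where 18.3% of all 14558 tested genes were called at a limma adjusted p below 0.05 (8.71% higher, 9.62% lower). The median log2 change was small and above 0, at 0.06 for the members and 0.00 for all genes, and 73 members (83.9%) had a change above 0. The 8 genes of complex III had changes of 0.03 to 0.16 and the 4 of complex II of 0.00 to 0.11, and with all 12 libraries none of these passed.

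Ndufaf4 (chr4:24898083-24905001) had values of 279, 311, 281 and 326 with vehicle and of 346, 342, 380 and 336 with myoglobin. The groups did not overlap, and the gene rose by 0.23 ± 0.064 on the log2 scale (± SE, limma adjusted p = 0.0195). With both agents it had 336, 359, 395 and 368, which overlaps the myoglobin range and exceeds it in replicate 3. It was also the Nduf-named assembly factor with the highest deposited values, while the other 7 had myoglobin changes of -0.07 to 0.12 that did not pass. The call was lost when vehicle replicate 1, vehicle replicate 3 or myoglobin replicate 3 was left out (adjusted p at most 0.0733).

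Cox6b2 (chr7:4751792-4753094) had 34, 44, 44 and 39 with vehicle and 26, 30, 32 and 26 with myoglobin, and fell by 0.48 ± 0.16 (limma adjusted p = 0.042). Every vehicle value lay above every myoglobin value. With both agents the values were 30, 37, 26 and 32, and the change against vehicle, -0.36 ± 0.16, did not pass. Leaving out any of 7 libraries ended the call of the fall (vehicle replicates 2, 3 and 4, myoglobin replicates 1, 2 and 4, and replicate 1 of both agents, adjusted p at most 0.119), at values near 30 where few reads limit precision. Its general paralog Cox6b1 had 264 ± 1.5 with vehicle and 272 ± 9.42 with myoglobin (SD, n = 4, change 0.04 ± 0.095, not called).

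Replicate 4 of both agents takes no direct part in this comparison, but it widens the shared estimate of the spread. Without it, 8 members were called for myoglobin, 6 up and 2 down, against a background of 26.1% of 14510 genes. Besides the 2 above they were Atp5l, Ndufa11, Ndufb5, Sdhd and Uqcrq, which rose, and Ndufa6, which fell. When any other single library was left out, except replicate 2 or 3 of both agents, 0 or 1 member passed. In those fits 14.1% to 18.2% of all genes were called.

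Atp5l (chr9:44912557-44920742), subunit g of the membrane part of the ATP synthase, had the largest rise of these, 0.28 ± 0.073 without replicate 4 (limma adjusted p = 0.0113, 0.0672 with all 12). Its values were 126, 111, 120 and 107 with vehicle and 138, 139, 136 and 150 with myoglobin. With both agents it had 146, 146 and 132 in replicates 1 to 3, level with myoglobin, and 106 in replicate 4, where most other members were at their highest. Ndufb5, an accessory subunit of the membrane arm of complex I, had 269 to 294 with vehicle and 306 to 332 with myoglobin (0.15 ± 0.043, adjusted p = 0.0158 without replicate 4, 0.0797 with all 12). Sdhd, a membrane anchor of complex II, had 389 to 406 and 407 to 452 (0.11 ± 0.037, adjusted p = 0.0496 and 0.292), a call at the threshold.

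Uqcrq, a small subunit of complex III, had 183 to 199 with vehicle and 208 to 217 with myoglobin (0.16 ± 0.05, adjusted p = 0.0313 without replicate 4, 0.337 with all 12). Ndufa11, a membrane-arm subunit of complex I, had 174 to 197 and 199 to 216 (0.18, adjusted p = 0.0463 and 0.143). Ndufa6, an accessory subunit of its matrix arm, had 281 to 295 and 251 to 279 (-0.13, adjusted p = 0.0461 and 0.118). Among these genes the vehicle and myoglobin values do not overlap. Ndufb4 had the largest upward myoglobin change of all members, 0.33 ± 0.15, at values of only 26 to 35 with vehicle and 38 to 40 with myoglobin, and did not pass.

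The second comparison asks what dexamethasone adds to myoglobin. A single member passed: Ndufv3, an accessory subunit at the NADH-binding end of complex I, rose. That is 1 of 87, with 6.98% of all genes called in either direction, 3.08% higher and 3.90% lower. The median change of the members was 0.15 with all 12 libraries, against 0.01 for all genes, and 0.05 without replicate 4, against 0.00. The unadjusted p was below 0.05 for 31 members (35.6%, against 22.2% of all genes) and, without replicate 4, for 18 (20.7%, against 22.8%). Without replicate 4 the call count was again 1 of 87, with 8.81% of all genes called in either direction, 4.02% higher and 4.79% lower. The count depends on the model: with a term for the replicate number in the fit of all 12 libraries, 8 members rose (9.20%, where 5.14% of all genes rose).

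Ndufv3 (chr17:31520115-31531331) had 324, 341, 329 and 337 under myoglobin and 384, 367, 376 and 361 with both agents. All values with both agents were higher, replicate 4 being the lowest of them, unlike in most members. The rise was 0.16 ± 0.041 (limma adjusted p = 0.0265) and 0.17 ± 0.039 without replicate 4 (adjusted p = 0.0117). With vehicle the values were 352, 350, 354 and 340, below those with both agents and overlapping myoglobin in 1 library. Against vehicle the change with both agents was 0.09 ± 0.041 and did not pass. Leaving out myoglobin replicate 1, 3 or 4 or replicate 1 or 3 of both agents ended the call (adjusted p at most 0.0769).

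In the fit of all 12 libraries and in that without replicate 4, both with no replicate term, no gene of complexes II to V passed in this comparison. No assembly factor passed in them either. Among these genes Sdhc of complex II came nearest (0.23 ± 0.070, limma adjusted p = 0.0600, and 0.15 ± 0.048, adjusted p = 0.0697 without replicate 4). Atp5g1 of complex V came next (0.23 ± 0.072, adjusted p = 0.0681). Cox7a2l, the supercomplex-related protein, followed: it had 209 to 236 with vehicle, 191 to 208 with myoglobin and 216 to 290 with both agents. Its change against myoglobin was 0.26 ± 0.083 (limma adjusted p = 0.0737) and without replicate 4 0.16 ± 0.059 (adjusted p = 0.105). Ndufaf3, another assembly factor of complex I, had 95 to 132 with myoglobin and 127 to 146 with both agents (0.26 ± 0.098, adjusted p = 0.14), and these ranges overlap. Of the 87 members, 13 had all values with both agents above all with myoglobin, where 7.03% of all genes did, and 0 had them below, where 6.19% did. Without replicate 4 it was 13 above and 1 below, with 9.77% and 9.53% of all genes.

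The third comparison sets both agents against vehicle, and shares its libraries with the other 2. Here members of every complex rose and none fell: 30 of 87 with all 12 libraries (34.5%), where 28.6% of all genes were called in either direction, 13.9% higher and 14.6% lower. Without replicate 4 it was 25 (28.7%), where 29.1% were called, 14.7% higher and 14.4% lower. The median change was 0.20 against 0.00 for all genes, and 0.12 against 0.00 without replicate 4. Of the members, 45 had every value with both agents above every vehicle value (51.7%, background 15.3%), 46 did without replicate 4 (52.9%, background 18.5%), and 0 lay below, where 13.3% of all genes did and 16.4% without replicate 4. The 2 sets of calls shared 22 members, 73.3% of the 30 and 88.0% of the 25. With a term for the replicate number in the fit of all 12 libraries, 48 members rose (55.2%, where 17.7% of all genes rose). With limma array weights 33 members rose (37.9%, where 17.0% of all genes rose) and 1 fell.

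The densely covered genes of the table rose more often in general, so the members are set beside other genes of the same read density, without replicate 4. At 0.03 to 0.1 reads per exonic base 24.0% of 25 members and 13.3% of the other genes rose. At 0.1 to 0.2 it was 23.3% of 30 and 21.8%, at 0.2 to 0.3 it was 6 of 20 members and 30.3% of the others, and above 0.3 55.6% of 9 and 43.3%. The median changes in these classes were 0.12, 0.11, 0.13 and 0.11 for the members and 0.00, 0.04, 0.06 and 0.09 for the others. The share of members that rose was above that of the other genes by more than 10 percentage points in the lowest and the highest of these classes and close to it in the middle ones, and these differences were not tested. When each library was also centred within such density classes and replicate 4 was left out, 12 members rose (13.8%, where 14.9% of all tested genes rose in the same fit) and the median was 0.067.

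**Figure D4:**
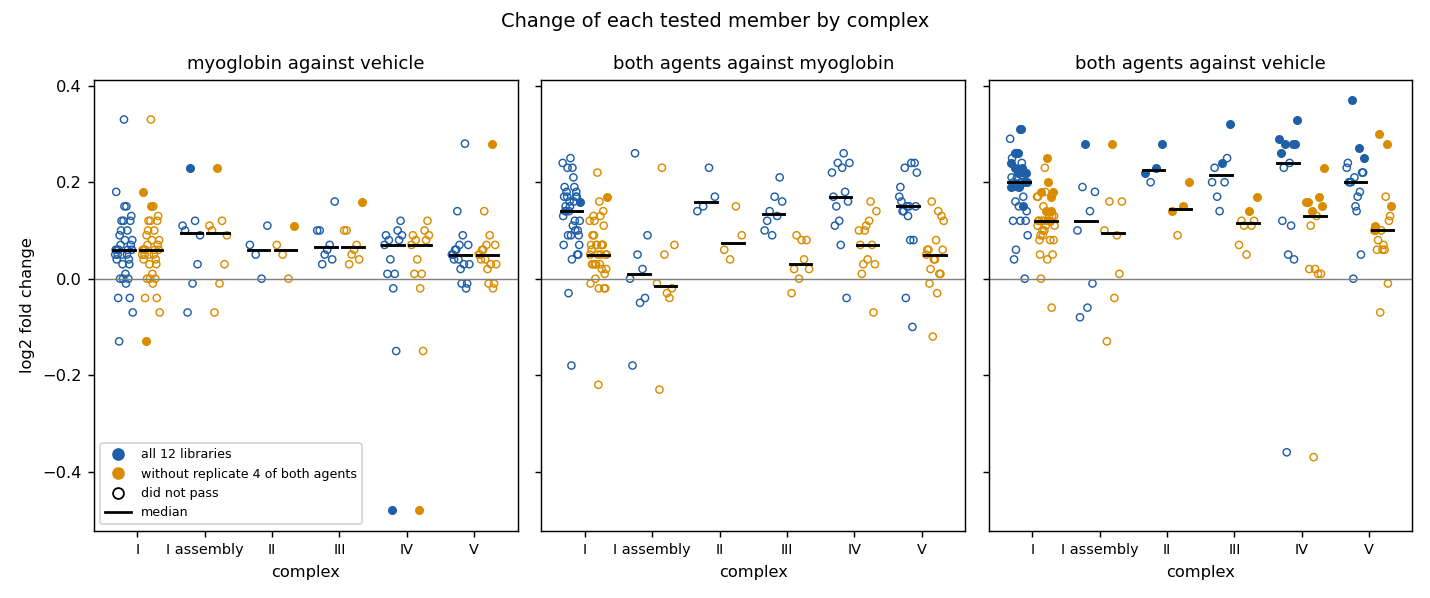
Log2 change of each tested member by complex in the 3 comparisons, with all 12 libraries (blue) and without replicate 4 of both agents (orange). Filled points passed at a limma adjusted p below 0.05, open points did not, and black lines are medians. For both agents against vehicle the median over all members is 0.20 and, without replicate 4, 0.12, and the lowest point is Cox6b2.

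There were 10 members that passed with all 12 libraries and with each library left out in turn, which were Atp5g1, Ndufa4, Ndufa7, Ndufaf4, Ndufb6, Ndufs1, Ndufs3, Ndufs8, Sdha and Sdhd. Of these, 6 also passed under every other setting tried: Atp5g1, Ndufa4, Ndufa7, Ndufaf4, Ndufb6 and Ndufs3. How many of all tested genes held in the same way was not counted, so neither count can be read as particular to the members. With all 12 libraries 28.6% of all genes were called in this comparison. Values below are in the order of replicates 1 to 4, and changes are on the log2 scale with their SE.

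In complex I, 15 of 37 tested subunits rose with all 12 libraries (40.5%) and 8 without replicate 4 (21.6%). Of all genes 13.9% and 14.7% rose. Among the 7 core subunits, which carry the flavin and iron-sulfur centres or bind near them, 4 rose (Ndufs1, Ndufs3, Ndufs8 and Ndufv2), and 3 without replicate 4, when Ndufv2 was lost (0.13, adjusted p = 0.0719). Among the 30 accessory subunits 11 rose, and 5 without replicate 4 (Ndufa7, Ndufb5, Ndufb6, Ndufb9 and Ndufs4). The median change was 0.17 for core and 0.21 for accessory subunits, and 0.12 for either without replicate 4.

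Ndufb6 (chr4:40270591-40279421), an accessory subunit of the membrane arm, had 163, 159, 161 and 166 with vehicle. It had 159, 171, 178 and 180 under myoglobin and 193, 192, 193 and 232 with both agents. The first 3 values with both agents differ by 1 at most and lie above all 8 others, with replicate 4 higher still. It rose by 0.31 ± 0.072 against vehicle (limma adjusted p = 0.00423), and by 0.25 ± 0.060 without replicate 4 (adjusted p = 0.00661).

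Ndufs3 (chr2:90894634-90904827), a core subunit of the matrix arm whose promoter line above holds the ETS letters, had 260, 248, 265 and 259 with vehicle. Its values were 262, 271, 270 and 257 under myoglobin and 283, 298, 293 and 327 with both agents. Vehicle and myoglobin overlap, and the values with both agents lie above either. It rose by 0.22 ± 0.052 against vehicle (limma adjusted p = 0.00618), and by 0.17 ± 0.046 without replicate 4 (adjusted p = 0.01). Against myoglobin the change was 0.18 ± 0.052, just outside the threshold (adjusted p = 0.0533).

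Ndufa7 (chr17:33824572-33838317), an accessory subunit, had 293 to 315 with vehicle, 305 to 334 under myoglobin and 359, 338, 340 and 429 with both agents (0.26 ± 0.068, limma adjusted p = 0.00957). Ndufs1, the largest iron-sulfur subunit, had 636 to 657 with vehicle and 696, 731, 685 and 765 with both agents. Its replicate 4 stood less apart than in most members, and the rise was 0.15 ± 0.042 (adjusted p = 0.0143). Ndufs8, another iron-sulfur subunit, had 263 to 273 with vehicle and 300, 313, 291 and 332 with both agents (0.22 ± 0.058, adjusted p = 0.0115). Ndufs4, an accessory subunit of the matrix arm, passed only narrowly without replicate 4 (0.14 ± 0.051) and not without vehicle replicate 2 (adjusted p = 0.0709).

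Of the 8 assembly factors, Ndufaf4 alone passed (12.5%, where 13.9% of all genes rose), as it had for myoglobin. Its change against vehicle was 0.28 ± 0.064 (limma adjusted p = 0.00392) and its change from myoglobin to both agents 0.05 ± 0.064 (adjusted p = 0.663). The other 7 had changes of -0.08 to 0.19 against vehicle.

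In complex II, which links the citric acid cycle to the chain, 3 of 4 genes rose with and without replicate 4. Of all genes 13.9% and 14.7% rose. Sdhd (chr9:50596357-50603812) had 406, 389, 400 and 395 with vehicle, 407, 433, 452 and 421 with myoglobin, and 456, 465, 448 and 568 with both agents. The vehicle values lie below all others, and myoglobin and both agents overlap only between 448 and 452. It rose by 0.28 ± 0.064 against vehicle (limma adjusted p = 0.00461) and by 0.20 ± 0.040 without replicate 4 (adjusted p = 0.00191).

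Sdha (chr13:74322254-74350280), the flavin-binding catalytic subunit, had 1003, 1020, 1025 and 1016 with vehicle. It had 1040, 1115, 1095 and 1032 under myoglobin and 1142, 1105, 1104 and 1402 with both agents. Every vehicle value lies below every other, and replicate 4 stands far above the rest of its group. The rise against vehicle was 0.22 ± 0.063 (limma adjusted p = 0.0172), and 0.14 ± 0.031 without replicate 4 (adjusted p = 0.00449), a smaller change with a smaller error.

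Sdhc (chr1:171127165-171150603), the other membrane anchor, had 348 to 376 with vehicle, 354 to 371 under myoglobin and 434, 390, 390 and 508 with both agents (0.23 ± 0.070, limma adjusted p = 0.0212). Leaving out vehicle replicate 4 ended that call (adjusted p = 0.0584). Sdhb (chr4:140961203-140979193), the iron-sulfur subunit, had 320 to 349 with vehicle, 335 to 367 under myoglobin and 355, 359, 369 and 493 with both agents. Its groups do not overlap between vehicle and both agents, but the change of 0.20 ± 0.083 did not pass (adjusted p = 0.079).

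In complex III, 2 of 8 genes rose with and without replicate 4, where 13.9% and 14.7% of all genes rose. Whether the share among these 8 genes differs from that of all genes was not tested. Uqcrc2 (chr7:120635176-120659524), a core protein, had 538 to 564 with vehicle, 550 to 618 under myoglobin and 593, 636, 594 and 792 with both agents (0.24 ± 0.074, limma adjusted p = 0.0266). Uqcrq (chr11:53427922-53430831) had 220, 206, 216 and 317 with both agents, where replicates 1 to 3 lie near the myoglobin range of 208 to 217. Its rise against vehicle was 0.32 ± 0.10 (adjusted p = 0.0319) and 0.17 ± 0.054 without replicate 4 (adjusted p = 0.0241). The call of Uqcrc2 ended without vehicle replicate 1, 2 or 3 (adjusted p at most 0.0697), and that of Uqcrq without vehicle replicate 1, 2 or 4 (at most 0.0801). Uqcrfs1 (chr13:30540308-30545362), the Rieske iron-sulfur protein, had 361 to 391 with vehicle and 387 to 519 with both agents, and did not pass (0.20 ± 0.076, adjusted p = 0.0627).

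In complex IV, the same 6 of 13 tested genes rose with and without replicate 4: Cox4i1, Cox5a, Cox6b1, Cox7b, Cox8a and Ndufa4. That is 46.2%, where 13.9% of all genes rose, and 14.7% without replicate 4. Ndufa4 (chr6:11900292-11907497) had 223, 207, 228 and 234 with vehicle, 224, 244, 251 and 231 with myoglobin, and 278, 266, 243 and 347 with both agents. All values with both agents exceed all vehicle values, and replicate 3 falls within the myoglobin range. It rose by 0.33 ± 0.088 (limma adjusted p = 0.0103), and by 0.23 ± 0.063 without replicate 4 (adjusted p = 0.0126).

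Cox4i1 (chr8:120668222-120674207), the general form of a regulatory subunit, had 419 to 435 with vehicle, 438 to 468 under myoglobin and 501, 473, 466 and 677 with both agents. The rise was 0.29 ± 0.087 with replicate 4 (limma adjusted p = 0.0234) and 0.16 ± 0.038 without it (adjusted p = 0.00544). Leaving out vehicle replicate 2 or 3 ended the call (adjusted p at most 0.0594). Cox6b1 (chr7:30616861-30626151) had 263 to 266 with vehicle and 296, 294, 285 and 424 with both agents (0.28 ± 0.095, adjusted p = 0.0411). That call ended without any of 7 libraries (each vehicle library and myoglobin replicates 2, 3 and 4, adjusted p at most 0.0851). The calls of Cox5a (without vehicle replicate 2, 0.0578), Cox7b (vehicle replicate 1 or 3, at most 0.0611) and Cox8a (any vehicle library, at most 0.0791) ended likewise. The change of Cox6b2 was -0.36 and did not pass, and the difference between the paralogs was not tested.

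In complex V, 3 of 17 genes rose with all 12 libraries (Atp5g1, Atp5k and Atp5pb) and 5 without replicate 4 (Atp5g1, Atp5pb, Atp5l, Atp5a1 and Atp5b). The first share, 17.6%, is near the 13.9% of all genes that rose. The second is 29.4%, where 14.7% of all genes rose. Atp5g1 (chr11:96068852-96075670), a gene for the c subunit, had 190, 187, 191 and 206 with vehicle, 198, 221, 221 and 214 with myoglobin, and 245, 238, 232 and 292 with both agents. The values with both agents lie above all others. The rise against vehicle was 0.37 ± 0.072 (limma adjusted p = 0.00133), and 0.30 ± 0.059 without replicate 4 (adjusted p = 0.00138). Against myoglobin it was 0.23 ± 0.072 and did not pass (adjusted p = 0.0681).

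The other genes for the same c subunit did not pass. Atp5g2 (chr15:102662864-102672352) had 65 to 71 with vehicle, 65 to 74 with myoglobin and 55 to 79 with both agents. Atp5g3 (chr2:73908447-73911326) had 412 to 440 with vehicle, 436 to 475 under myoglobin and 455, 471, 453 and 630 with both agents (0.21 ± 0.082, limma adjusted p = 0.063). Whether the 3 genes differ in their change was not tested.

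Atp5a1 and Atp5b, of the catalytic head, and Atp5l were called only without replicate 4. Atp5b (chr10:128083273-128090391) had 1255 to 1302 with vehicle and 1431, 1375, 1354 and 1975 with both agents. The change of 0.24 ± 0.088 did not pass with replicate 4 (limma adjusted p = 0.0525), while the smaller change of 0.11 ± 0.030 passed without it (adjusted p = 0.01). Atp5a1, the alpha subunit, had 1239 to 1303 with vehicle and 1381, 1364, 1351 and 1923 with both agents (0.10 ± 0.032 without replicate 4, adjusted p = 0.027). Atp5pb, a subunit of the peripheral stalk, had 355 to 379 with vehicle and 388 to 533 with both agents (0.25 ± 0.079, adjusted p = 0.0285). Its call ended without vehicle replicate 1 or 2 (at most 0.0749). Over all complexes, leaving out vehicle replicate 1, 3 or 4 gave 17 members called in place of 30 (19.5%, where 12.3%, 10.8% and 11.9% of all genes rose), and leaving out vehicle replicate 2 gave 15 (17.2%, where 10.5% rose).

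**Figure D5:**
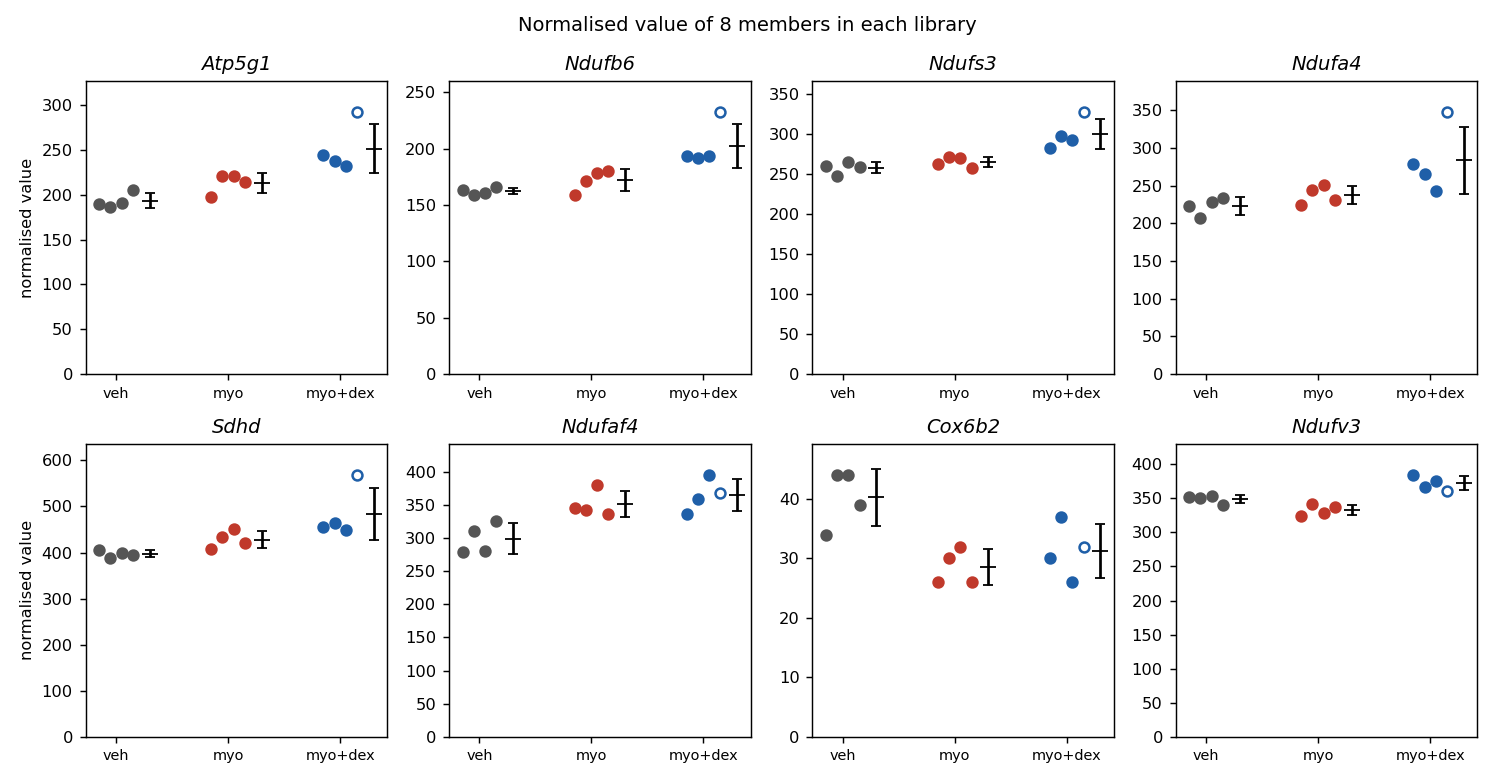
Normalised value of members named in the text in each of the 12 libraries, by treatment. Points are libraries, the open circle is replicate 4 of both agents, and bars give mean and SD of all 4 libraries. In Atp5g1 the values with both agents, 232 to 292, lie above all others, and in Ndufaf4 myoglobin and both agents lie at the same level.

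Genes that assemble, supply or regulate these complexes were taken from 11 lists with 328 genes in the table. Of all tested genes, 8.71% rose and 9.62% fell with myoglobin, and 13.9% rose and 14.6% fell with both agents against vehicle. Among 12 complex I assembly factors outside the Nduf names, Acad9 rose by 0.34 ± 0.047 with myoglobin (limma adjusted p = 8.40e-05) and by 0.36 ± 0.047 with both agents against vehicle. Ecsit rose by 0.20 and 0.28, Dmac2 fell by 0.15 with myoglobin, and nothing in the list passed from myoglobin to both agents. Acad9 and Ecsit belong to an assembly complex that helps build the membrane arm of complex I. Among 10 complex II and III assembly factors, Sdhaf1, which helps insert iron-sulfur clusters into Sdhb, had means of 135, 174 and 212 (194 without replicate 4). It rose by 0.36 ± 0.11 with myoglobin and by 0.64 ± 0.11 with both agents against vehicle (limma adjusted p = 0.00036), more than any subunit, although Sdhb itself did not pass.

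Of 29 complex IV assembly factors, 2 rose with myoglobin, the haem synthesis enzyme Cox10 (0.20) and the RNA-binding protein Lrpprc (0.17), and 3 with both agents against vehicle. These shares are below the 8.71% and 13.9% of all genes that rose. None of 5 complex V assembly factors passed in any comparison. Of 11 electron carriers and related genes, the ADP/ATP carriers Slc25a4 and Slc25a5 rose with both agents against vehicle, by 0.25 and 0.29. Of 77 mitochondrial ribosomal proteins 5 rose with myoglobin and 3 with both agents against vehicle, again smaller shares than over all genes. Their median change with both agents against vehicle was 0.08, and 0.04 without replicate 4. Mrpl45 rose by 0.23 and 0.34.

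Of 29 import and chaperone genes 3 rose in each of those comparisons, among them Chchd4, which imports small cysteine-rich subunits (0.24 and 0.25), and the inner-membrane protein Phb (0.16 and 0.20). Over all tested genes 8.71% and 13.9% rose in them. Without replicate 4, 9 of the 29 rose and 1 fell with myoglobin, where 13.3% of all genes rose and 12.8% fell. The cytosolic ribosomal proteins, which are not mitochondrial, had a median change with both agents against vehicle of 0.19, and 0.08 without replicate 4. These are near the 0.20 and 0.12 of the respiratory members. Of the cytosolic ribosomal proteins 6 of 79 rose, a smaller share than the 13.9% of all genes.

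In the citric acid cycle and pyruvate dehydrogenase list, 11 of 27 genes rose and 1 fell with both agents against vehicle. Of all genes 13.9% rose and 14.6% fell. Among the rises were the pyruvate dehydrogenase subunits Dlat (0.20 ± 0.042) and Pdhb (0.26 ± 0.054). Pdk2, a kinase that inhibits pyruvate dehydrogenase, fell by 0.37 ± 0.056 with myoglobin (limma adjusted p = 0.000211) and rose by 0.29 ± 0.056 from myoglobin to both agents. Pcx, pyruvate carboxylase, fell by 0.32 ± 0.060 and rose by 0.28 ± 0.060 likewise. These steps share the myoglobin libraries. Of 20 glycolysis genes 9 rose and none fell with both agents against vehicle, and 7 rose without replicate 4, where 14.7% of all genes rose. Hk2, a hexokinase, had means of 1875, 2438 and 2691 and rose by 0.51 ± 0.067 against vehicle, and the glucose transporter Slc2a1 rose by 0.32 ± 0.052.

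The 26 regulators of mitochondrial biogenesis moved in both directions, with 1 rise and 4 falls with both agents against vehicle, and 3 and 3 without replicate 4. Of all genes 13.9% rose and 14.6% fell, and without replicate 4 14.7% and 14.4%. Esrra, a nuclear receptor that activates respiratory genes, had means of 336, 374 and 422 and rose by 0.33 ± 0.077 (limma adjusted p = 0.00486). Nrf1, whose motif was among those searched in the promoters, fell by 0.22 ± 0.059 (adjusted p = 0.0106). Ppargc1a, their coactivator, had means of 349, 306 and 381, and rose by 0.31 ± 0.081 from myoglobin to both agents (adjusted p = 0.0287). Esrrb rose by 1.05 ± 0.24 in that comparison at means of 23.8 and 48.8, and Pprc1, a coactivator of the same family, rose by 0.19 with myoglobin and fell by 0.25 from myoglobin to both agents.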

How the data were processed

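RNA of 12 tubuloid cultures was sequenced as stranded mRNA libraries, 4 per treatment. The deposited table gives 1 value per gene and library, treated here as a score: whole numbers that the authors had already normalized, read from their steps as reads divided by a size factor and rounded. Per the submitters' processing notes, the tools were DESeq2 1.36.0, featureCounts 2.0.3, STAR 2.7.10a, Trimmomatic 0.39 and Picard 2.27.4, on mm10; their settings, and whether counting used strand, are not given in the sources used here. Reads per library were estimated from the steps, at 3.25 to 5.92 M.

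Values were analysed as log2(value + 1), which understates changes of low genes, with limma 3.58.1 (R 4.3.3) in 1 fit over the 3 groups. Genes were tested if 4 or more libraries had 10 or higher, and p-values were adjusted over all tested genes by Benjamini and Hochberg, with 0.05 as the threshold. The scripts were tested on simulated data. Tables and plots used Python 3.11.15, numpy 2.4.6, pandas 2.3.3 and matplotlib 3.10.9. Levels between genes were divided by the shortest of the best-ranked principal transcripts in GENCODE M21, which 89 of 90 members have. Coordinates are those of mm10.

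The members and lists were chosen with earlier results of these data known. Named members are the complex II genes, Uqcrfs1, the paralog sets, in each comparison and class the 3 passing members with the smallest p (or the 1 with the smallest where none passed), and the 3 largest rises and falls that passed without overlap; of each other list, the 2 passing genes with the smallest p. Other genes named were chosen after their values were seen. Alternatives were other pseudocounts, filters, scalings, weights, a replicate term, fits of 2 groups, and leaving out each library. The table holds 0 genes of the mitochondrial chromosome, so subunits encoded there were not analysed here, nor were Cyct, Coa1, Mzm1 and Pet117.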

Additional observations from a re-analysis of the deposited data

Results flagged for a closer look

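Replicate 4 of both agents lay far above the other 3 libraries of its group, by a gap that was a large part of the group's range. Its summed value was 33577 over all members, 12079 for complex I, 2971 for complex II, 3611 for complex III, 4369 for complex IV and 9321 for complex V. Among members named in the text it stood apart in the same way at 366 for Ndufb5, 232 for Ndufb6, 1402 for Sdha, 493 for Sdhb, 568 for Sdhd and 317 for Uqcrq. The same held at 677 for Cox4i1, 390 for Cox6a1, 424 for Cox6b1, 292 for Cox7a2, 380 for Cox8a and 630 for Atp5g3. Over all tested members it was the high outlying library for 31, and other genes were not counted. Vehicle replicate 4 stood apart in Ndufaf3, where it was high at 131, and in Cox7a2, where it was low at 181. Chance alone puts a library apart by this measure in about 1 in 20 groups.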

How the results depend on the processing

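Leaving out 1 library at a time gave 0 to 8 members called for myoglobin against vehicle, 0 to 3 for both agents against myoglobin and 15 to 41 for both agents against vehicle. Over all genes the ranges were 2037 to 3789, 549 to 1279 and 3130 to 4226, and the member medians ranged from 0.035 to 0.076, 0.053 to 0.183 and 0.118 to 0.243. For myoglobin against vehicle, 1 member was called with no filter on low values (12.5% of all genes). It was 5 after centring within density classes (21.1% of all genes). Array weights called 8 members (4314 of all genes, 29.6%), and a fit of only the 2 groups compared called 6 (24.5% of all genes). For both agents against myoglobin, 0 members were called with no filter, upper-quartile scaling, library-total scaling or only the 2 groups compared. Of all genes 4.41%, 7.54%, 7.56% and 4.54% were called there (645 genes in the last). Quantile normalization called 5 members (5.75%, against 7.49% of all genes), cyclic loess 3 (3.45%, against 7.32%) and centring 2 (2.30%, against 7.95%). Array weights called 1 member (1.15%) and 1625 of all genes (11.2%). With only the 2 groups compared, 13 members rose for both agents against vehicle (14.9%, where 10.9% of all genes rose). Array weights gave 33 rises and 1 fall there, where 34.2% of all genes were called. The cause of these shifts was not tested.

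Deviations from the group means correlated at -0.015 to 0.456 between same-numbered libraries of different groups, and at -0.403 to 0.196 between differently numbered ones. Several same-numbered pairs thus lay above all differently numbered ones. The labels do not tie a number to a mouse, so libraries were not treated as pairs, and whether they are pairs was not tested. With the replicate block, 8 members and 1788 genes were called for both agents against myoglobin, and 48 members rose for both agents against vehicle (55.2%, where 17.7% of all genes rose). Further alternatives were chosen after seeing the data. Without replicate 4 and with the replicate block, 12 members and 5184 genes were called for myoglobin, and 2 members and 2099 genes for both agents against myoglobin. Without replicate 4 and centred within density classes, 7 members were called for myoglobin, where 25.5% of all genes were called. For both agents against vehicle it was 12 (13.8%, where 14.9% of all genes rose), with a median of 0.067. No result changed its direction where it passed. Low depth in 1 library and the low values of Cox6b2 and Ndufb4 limit precision, as does the number of vehicle libraries.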
